A study of Mus musculus with 102 samples.

Results

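The TREM2 axis and the genes that mark disease-associated microglia were described in microglia of the mouse lumbar spinal cord through 10 genes: Trem2, Tyrobp, Axl, Itgax, Clec7a, Cst7, Cd9, Cd63, Gpnmb and Igf1. They were taken by gene symbol from the 18856 genes of the normalized count table the authors deposited and matched by gene ID to the 53715 genes of the raw count table, where all 10 were found. All 10 were among the 20461 genes that passed the filter on low counts. Poly(A) RNA, copied into cDNA from an oligo(dT) primer, was sequenced from microglia collected by flow cytometry, in a study of neuropathy caused by the chemotherapy drug cisplatin. There were 6 groups. KO mice, named ABC-imKO in the labels, carried Abca1 fl/fl, Abcg1 fl/fl and Cx3cr1-CreERT2, so that the 2 cholesterol exporter genes can be deleted by an inducible Cre recombinase under the Cx3cr1 promoter, which is active in microglia and in other myeloid cells. For WT mice the labels give no further allele. In each genotype, mice received intraperitoneal cisplatin on days 1 and 3 and intrathecal AIBP on day 7 (cisplatin AIBP), or the same cisplatin and intrathecal saline on day 7 (cisplatin saline), or no treatment (naive). AIBP is a secreted protein that binds apolipoprotein A-I and helps cells to release cholesterol. Naive mice had no injection at all, so a difference between cisplatin saline and naive also holds the effect of the intrathecal injection. There were 3 numbered samples per group, apart from WT cisplatin AIBP with 2, the samples 7 and 9. Each of the 17 samples was sequenced as 3 technical libraries, which were summed. Whether 1 mouse or several went into a numbered sample is not stated, nor are age, sex or a tamoxifen schedule, and a p-value here is therefore about the spread among the numbered samples.

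TREM2 is a surface receptor of microglia and other myeloid cells that binds lipids, lipoproteins and cell debris. It has no signalling tail of its own and passes its signal through the adaptor TYROBP, also called DAP12, whose phosphorylated motif recruits the kinase SYK. In mouse models of amyloid disease and of other damage to the central nervous system, microglia near the lesion enter a state called disease-associated microglia. In that state the phagocytic, lysosomal and lipid-handling genes described here are raised while homeostatic genes are lowered, and its full form depends on Trem2.

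Each sample held 45072898 to 76643616 counts, with a median of 63121828, and 18791 to 21467 genes were detected in each. Abca1 stood at 56.6 to 98.5 CPM in KO cisplatin saline and 66.1 to 105 CPM in KO naive, and at 60.4 to 76.1 CPM in WT cisplatin saline and 87.3 to 114 CPM in WT naive; CPM is the count scaled in the usual way to the library size, itself adjusted by the TMM method. Abcg1 stood at 50.9 to 68.4 CPM in KO cisplatin saline and 41.6 to 66.4 CPM in KO naive, against 42.7 to 65.7 CPM in WT cisplatin saline and 91.7 to 160.2 CPM in WT naive. Gene counts cover exons inside and outside the floxed segments, so they are no measure of the deletion. The samples labelled KO cisplatin AIBP held Abca1 at 32.6 to 65.7 CPM and Abcg1 at 25.6 to 59.0 CPM, against 41.1 and 45.6 CPM for Abca1 and 36.2 and 63.1 CPM for Abcg1 in WT cisplatin AIBP. Cx3cr1, which encodes the fractalkine receptor and whose promoter drives the Cre, stood at 1718 to 2771 CPM in KO cisplatin saline and 3397 to 4871 CPM in KO naive, below the WT ranges of 5531 to 7103 CPM in cisplatin saline and 9349 to 10656 CPM in naive. In the 3 samples labelled KO cisplatin AIBP it stood at 5551, 5249.6 and 7078 CPM, above every other KO sample and partly within the WT cisplatin range. Those 3 samples are therefore called by their label throughout. Every sample expressed all 7 microglia markers tested (Tmem119, P2ry12, Sall1, Cx3cr1, Siglech, Fcrls and Olfml3), with a summed level of 8184 to 31208 CPM.

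On GRCm38 with GENCODE M21, the genes lie at the following places: Trem2 (ENSMUSG00000023992, chr17:48346401-48354147, plus strand), Tyrobp (ENSMUSG00000030579, chr7:30413760-30417585, plus strand), Axl (ENSMUSG00000002602, chr7:25757273-25788705, minus strand), Itgax (ENSMUSG00000030789, chr7:128129547-128150657, plus strand), Clec7a (ENSMUSG00000079293, chr6:129461591-129472779, minus strand). The others are Cst7 (ENSMUSG00000068129, chr2:150570415-150578944, plus strand), Cd9 (ENSMUSG00000030342, chr6:125460266-125494791, minus strand), Cd63 (ENSMUSG00000025351, chr10:128900989-128912822, plus strand), Gpnmb (ENSMUSG00000029816, chr6:49036546-49070929, plus strand) and Igf1 (ENSMUSG00000020053, chr10:87858265-87937042, plus strand). All values are per gene and not per exon or transcript. The 10 genes span a wide range of abundance. Per kilobase of the longest protein-coding transcript of GENCODE M21, and averaged over the 17 samples, Tyrobp was the most abundant at 3318 CPM per kb. Trem2 followed at 1243, Cd63 at 789 and Cd9 at 588 CPM per kb, Cst7, Clec7a and Axl lay at 30.9, 27.001 and 23.0 CPM per kb, and Itgax, Gpnmb and Igf1 at 1.83, 1.28 and 0.0691 CPM per kb. Trem2, Tyrobp, Cd9 and Cd63 were measured from 18433 to 166950 counts per sample and Cst7 from 169 to 4046 counts. Gpnmb was below 1 CPM in 14 of the 17 samples and Igf1 in 15.

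After cisplatin and saline the 10 genes did not move as one group. The receptor gene Trem2 and the tetraspanin gene Cd9 fell in both genotypes and the tetraspanin gene Cd63 rose in both. Cst7, which encodes the protease inhibitor cystatin F, rose in WT. The adaptor gene Tyrobp did not pass the test in either genotype. In KO, 1 of the 10 genes rose and 2 fell, where 4.41% of the 20461 genes tested were called, 2.42% higher and 1.99% lower (edgeR quasi-likelihood test, Benjamini-Hochberg adjusted p under 0.05). In WT, 2 rose and 2 fell, where 2.91% of all genes tested were called, 1.95% higher and 0.953% lower. The ranges of cisplatin saline and naive did not overlap for 4 of the 10 genes in KO, against 23.5% of all genes tested, and for 6 of 10 in WT, against 22.8%. The median log2 fold change of the 10 genes was -0.05 in KO and 0.56 in WT, where the median over all genes tested was -0.04 and -0.01. In sorted cells sequenced in bulk, fewer cells of a type and less RNA per cell cannot be told apart.

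**Figure D1:**
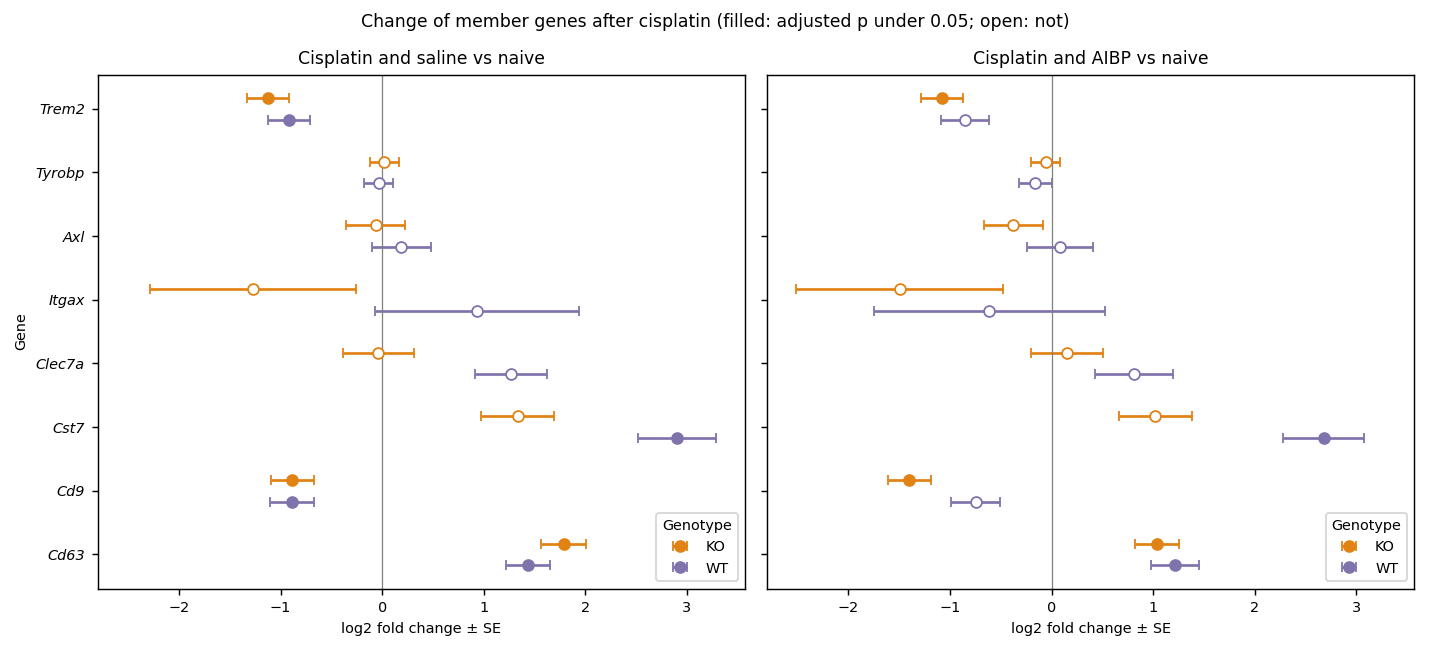
Log2 fold change (x axis, points, bars show SE) of 8 genes (y axis) after cisplatin and saline (left) and cisplatin and AIBP (right), each against naive of the same genotype, in KO (orange, upper point of each pair) and WT (purple); filled points have an adjusted p under 0.05, and the KO points on the right are the samples labelled KO cisplatin AIBP. Trem2 and Cd9 lie left of 0 and Cd63 and Cst7 right of 0 in all 4 comparisons, while Tyrobp lies between -0.16 and 0.02.

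The promoters of the 4 genes that were called are shown because they are the members whose transcripts moved after cisplatin. The windows run from 250 bases before the RefSeq start site to 10 bases after it, 5′ to 3′ on the strand of the gene (GRCm38.p6). Trem2 lies on the plus strand of chromosome 17 (chr17:48346151-48346410), Cst7 on the plus strand of chromosome 2 (chr2:150570165-150570424), Cd9 on the minus strand of chromosome 6 (chr6:125494751-125495010) and Cd63 on the plus strand of chromosome 10 (chr10:128909095-128909354). Capitals mark matches to the searched motifs.
Trem2: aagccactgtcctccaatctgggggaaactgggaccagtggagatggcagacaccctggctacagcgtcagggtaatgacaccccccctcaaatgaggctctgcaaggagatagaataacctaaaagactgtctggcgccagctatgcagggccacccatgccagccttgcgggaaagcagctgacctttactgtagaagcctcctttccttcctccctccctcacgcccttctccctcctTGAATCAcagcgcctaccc
Cst7: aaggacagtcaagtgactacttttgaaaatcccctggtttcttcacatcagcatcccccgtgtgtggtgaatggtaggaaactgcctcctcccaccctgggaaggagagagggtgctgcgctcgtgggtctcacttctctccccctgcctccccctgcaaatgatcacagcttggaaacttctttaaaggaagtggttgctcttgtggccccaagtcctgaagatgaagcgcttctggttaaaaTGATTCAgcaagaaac
Cd9: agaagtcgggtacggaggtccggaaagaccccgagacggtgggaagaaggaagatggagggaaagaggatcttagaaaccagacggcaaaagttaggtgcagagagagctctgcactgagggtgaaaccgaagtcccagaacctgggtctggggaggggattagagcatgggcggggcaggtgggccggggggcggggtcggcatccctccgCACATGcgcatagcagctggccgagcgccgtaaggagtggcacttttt
Cd63: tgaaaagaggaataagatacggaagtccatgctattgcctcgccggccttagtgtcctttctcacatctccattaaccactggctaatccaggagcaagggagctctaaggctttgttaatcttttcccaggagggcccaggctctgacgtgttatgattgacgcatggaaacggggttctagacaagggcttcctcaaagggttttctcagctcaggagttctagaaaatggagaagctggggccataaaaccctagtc
The letters searched on both strands were TGANTCA, bound by AP-1 factors, CACGTG and CATGTG, bound by the MiT/TFE factors that control lysosomal genes, and GAGGAAGT, bound by the myeloid factor PU.1; TGANTCA overlaps none of the others. Over windows of 250 bases before to 50 after the start site, 9 of the 10 genes had an entry and TGANTCA was present in 5 of them, Trem2, Cst7, Gpnmb, Itgax and Igf1, against 7.81% of 32851 RefSeq promoters. It lay at positions -9 to -3 from the start site in Trem2 and at -6 to 1 in Cst7, the first transcribed base being 1. The middle base was A in Trem2 and Igf1 and T in Cst7, which is not the AP-1 form. Only Gpnmb (TGACTCA) and Itgax (TGAGTCA), neither of them called, had that form. Its share over all promoters was not counted. CATGTG was present in Cd9 alone, at -38 to -33 on the opposite strand, against 14.2% of all promoters. CACGTG and GAGGAAGT were found in 0 of the 9, against 7.15% and 3.2%. Genes with TGANTCA include one that fell, one that rose and 3 that were not called, and a match describes letters, not binding.

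Trem2 was lower after cisplatin in every sample of both genotypes. KO cisplatin saline samples held 1197, 781 and 743 CPM, against 1827, 1972 and 2136 CPM in KO naive. WT cisplatin saline samples held 1303, 763 and 1143 CPM, against 2089, 2172 and 1813 CPM in WT naive. The cisplatin and naive ranges did not overlap in either genotype. The log2 fold change was -1.12 ± 0.21 (SE) in KO (adjusted p = 0.00705) and -0.92 ± 0.21 in WT (adjusted p = 0.0283), with 3 samples per group. The KO call held in all 6 single omissions and 10 other settings. The WT call was lost without WT naive 1 or 2 or without WT cisplatin saline 5 or 6 (log2 fold change between -1.09 and -0.73 over the 6 single omissions, adjusted p up to 0.13). It was also lost in a fit of the 2 WT groups only and when technical replicate 1 or 3 was left out. Without samples 5 and 6 together, which leaves sample 4 alone, the log2 fold change was -0.59.

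Tyrobp, the adaptor through which TREM2 signals, had 2229.7, 1944 and 1867 CPM in KO cisplatin saline, against 1855, 1871 and 2234 CPM in KO naive. In WT it had 1804, 1539 and 2003 CPM after cisplatin and saline, against 1928, 2036 and 1515 CPM in naive. The groups overlapped in both genotypes. The estimate was a log2 fold change of 0.02 ± 0.14 in KO (95% interval -0.28 to 0.32) and -0.04 ± 0.14 in WT (-0.34 to 0.27), and both intervals lie above the estimates for Trem2.

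Set against its adaptor, Trem2 was lower in every cisplatin sample. The ratio of Trem2 CPM to Tyrobp CPM, which is not per length and is read here only from sample to sample, was 0.537, 0.402 and 0.398 in KO cisplatin saline, against 0.985, 1.05 and 0.956 in KO naive. It was 0.722, 0.496 and 0.571 in WT cisplatin saline, against 1.08, 1.07 and 1.197 in WT naive. The means were 0.446 ± 0.079 in KO cisplatin saline and 0.998 ± 0.050 in KO naive, and 0.596 ± 0.12 in WT cisplatin saline and 1.12 ± 0.070 in WT naive (SD, n = 3 each). The samples labelled KO cisplatin AIBP had ratios of 0.471, 0.444 and 0.562, and the ratio was 0.666 and 0.701 in WT cisplatin AIBP, below every naive sample. It was chosen after the values were seen and is given without a test.

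**Figure D2:**
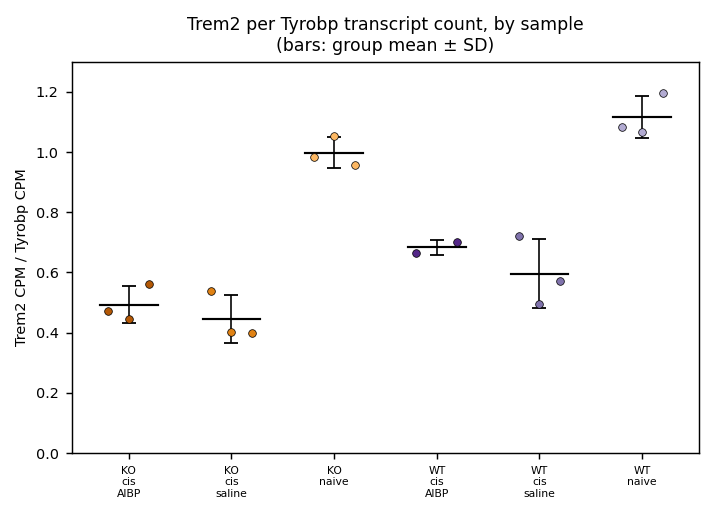
Ratio of Trem2 CPM to Tyrobp CPM (y axis, no unit) in each of the 17 samples (points) by group (x axis), with group mean ± SD (bars). All 6 naive samples lie between 0.956 and 1.197 and all 11 cisplatin samples between 0.398 and 0.722.

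Cd9 and Cd63 encode tetraspanins, membrane proteins that organise receptor complexes and vesicles; CD63 sits mainly in late endosomes and lysosomes. Cd9 fell and Cd63 rose. Cd9 had 789.9, 522 and 399.6 CPM in KO cisplatin saline, against 1024, 1024 and 1116 CPM in KO naive, and 643, 539 and 549 CPM in WT cisplatin saline, against 1218, 1029 and 958 CPM in WT naive. No cisplatin sample reached the naive range in either genotype. For Cd9 the log2 fold change was -0.89 ± 0.21 in KO (adjusted p = 0.0282) and -0.89 ± 0.21 in WT (adjusted p = 0.0373). The KO call of Cd9 was lost in 5 of the 6 single omissions, those of each KO naive sample and of KO cisplatin saline 5 or 6 (adjusted p up to 0.118), and the WT call likewise without any WT naive sample or WT cisplatin saline 5 or 6 (adjusted p up to 0.167). Both calls of Cd9 also missed in fits of the 2 groups only and when technical replicate 1 or 3 was left out, and the WT call missed without samples 5 and 6 together (-0.68, adjusted p = 0.756). Cd9 overlaps the genes Gm26728 and Gm28809 on the opposite strand, and the strand setting of the counting was not given in the sources used here.

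Cd63 had 1958, 1529 and 1048 CPM in KO cisplatin saline, against 442, 399 and 473 CPM in KO naive. In WT it had 850.4, 1349 and 1060.5 CPM after cisplatin and saline, against 373, 396 and 438 CPM in naive. Every cisplatin sample lay above every naive sample of its genotype. The ratio of the group means was 3.45 in KO (log2 fold change 1.79 ± 0.22, adjusted p = 0.000681) and 2.70 in WT (1.43 ± 0.22, adjusted p = 0.00373). Both calls held when any single sample was left out, and the WT call was lost without samples 5 and 6 together (1.13, adjusted p = 0.295).

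Cst7 was lowest in WT naive. It had 36.9, 38.9 and 48.7 CPM in KO cisplatin saline, against 18.7, 14.1 and 16.7 CPM in KO naive, and 30.1, 65.1 and 48.1 CPM in WT cisplatin saline, against 3.42, 5.18 and 10.6 CPM in WT naive. The ranges did not overlap in either genotype. In WT the log2 fold change was 2.90 ± 0.38 (adjusted p = 0.00164), and the call held when any single sample was left out, though not in a fit of the 2 WT groups alone or without samples 5 and 6 together (adjusted p up to 0.134). In KO it was 1.33 ± 0.36 and just missed the threshold (adjusted p = 0.0517). The KO difference passed in 6 of 10 other settings. Among these were DESeq2 (adjusted p = 0.00504), limma-voom (0.0236) and either other filter on low counts (0.0419 and 0.0168). It missed in the rest of them (adjusted p up to 0.371) and in all 6 single omissions (adjusted p between 0.081 and 0.186).

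Clec7a encodes dectin-1, a pattern recognition receptor for fungal glucans. It had 51.4, 66.8 and 66.8 CPM in KO cisplatin saline, against 75.0, 62.9 and 51.9 CPM in KO naive, and these ranges overlap. In WT it had 51.2, 99.1 and 91.6 CPM in cisplatin saline, against 23.2, 45.2 and 31.9 CPM in naive, without overlap. The difference was a log2 fold change of -0.04 ± 0.35 in KO (adjusted p = 0.986) and 1.27 ± 0.36 in WT (adjusted p = 0.0747). The WT difference passed under DESeq2 (adjusted p = 0.00747) and under either other filter on low counts (0.0399 and 0.0165), without WT cisplatin saline 4 (0.0318) and without technical replicate 2 (0.034). It missed in the other 5 single omissions (adjusted p up to 0.283) and in 6 of 11 other settings. Among them was the fit without samples 5 and 6 together, which leaves sample 4 alone and gave a log2 fold change of 0.66.

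Axl encodes a receptor tyrosine kinase of the TAM family that binds GAS6 on dying cells. It had 168, 128 and 115 CPM in KO cisplatin saline, against 169.7, 126 and 134 CPM in KO naive, and 86.7, 44.7 and 66.3 CPM in WT cisplatin saline, against 69.7, 48.3 and 55.7 CPM in WT naive. The ranges overlapped in both genotypes. For Axl the log2 fold change was -0.06 ± 0.29 in KO (adjusted p = 0.954) and 0.19 ± 0.29 in WT (adjusted p = 0.796). Itgax, the integrin alpha X chain known as CD11c, had 1.25, 4.97 and 7.71 CPM in KO cisplatin saline, against 9.11, 21.2 and 3.39 CPM in KO naive. Its WT values were 4.61, 10.6 and 22.6 CPM in the cisplatin saline group, against 2.12, 1.53 and 16.2 CPM in naive. The Itgax groups overlapped in both genotypes and neither difference passed (log2 fold change -1.27 ± 1.01 in KO and 0.93 ± 1.01 in WT). Itgax also marks dendritic cells, whose 8 other markers summed to 1.95 to 17.1 CPM in KO cisplatin saline, 6.09 to 31.9 CPM in KO naive, 7.18 to 20.7 CPM in WT cisplatin saline and 6.39 to 13.4 CPM in WT naive, with Ccr7 at 0 in all these groups.

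Gpnmb, a transmembrane glycoprotein of lysosomes, was nearly absent outside 2 samples. WT cisplatin saline 5 and 6 held 18.4 and 59.5 CPM, from 1146 and 3640 counts, and no other sample passed 1.23 CPM. In each of them a single technical library gave 94.5% and 93.6% of those counts. In WT the log2 fold change of 6.68 ± 2.09 did not pass (adjusted p = 0.113) and the group range still overlapped that of naive through sample 4 with 0.0762 CPM. It passed under DESeq2 (adjusted p = 0.000305), without any filter on low counts (0.0406) and without WT cisplatin saline 4 (0.0374). Without samples 5 and 6 it was -1.64. In KO the log2 fold change of Gpnmb was 2.77 ± 1.84 (adjusted p = 0.447), from 103 counts in cisplatin saline, 98 of them in sample 6, and 11 counts in naive. Igf1, insulin-like growth factor 1, is raised in disease-associated microglia in mice but was barely detected here. It had 0.0142, 0.037 and 0.652 CPM in KO cisplatin saline, against 0.464, 0.0167 and 1.94 CPM in KO naive, and 0, 0.0965 and 0.0817 CPM in WT cisplatin saline, against 2.97, 0.961 and 0.541 CPM in WT naive. These rest on 56 counts in KO cisplatin saline and 149 in KO naive, and on 11 in WT cisplatin saline and 235 in WT naive, and neither difference passed (adjusted p = 0.694 in KO and 0.304 in WT). Igf1os overlaps Igf1 on the opposite strand.

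**Figure D3:**
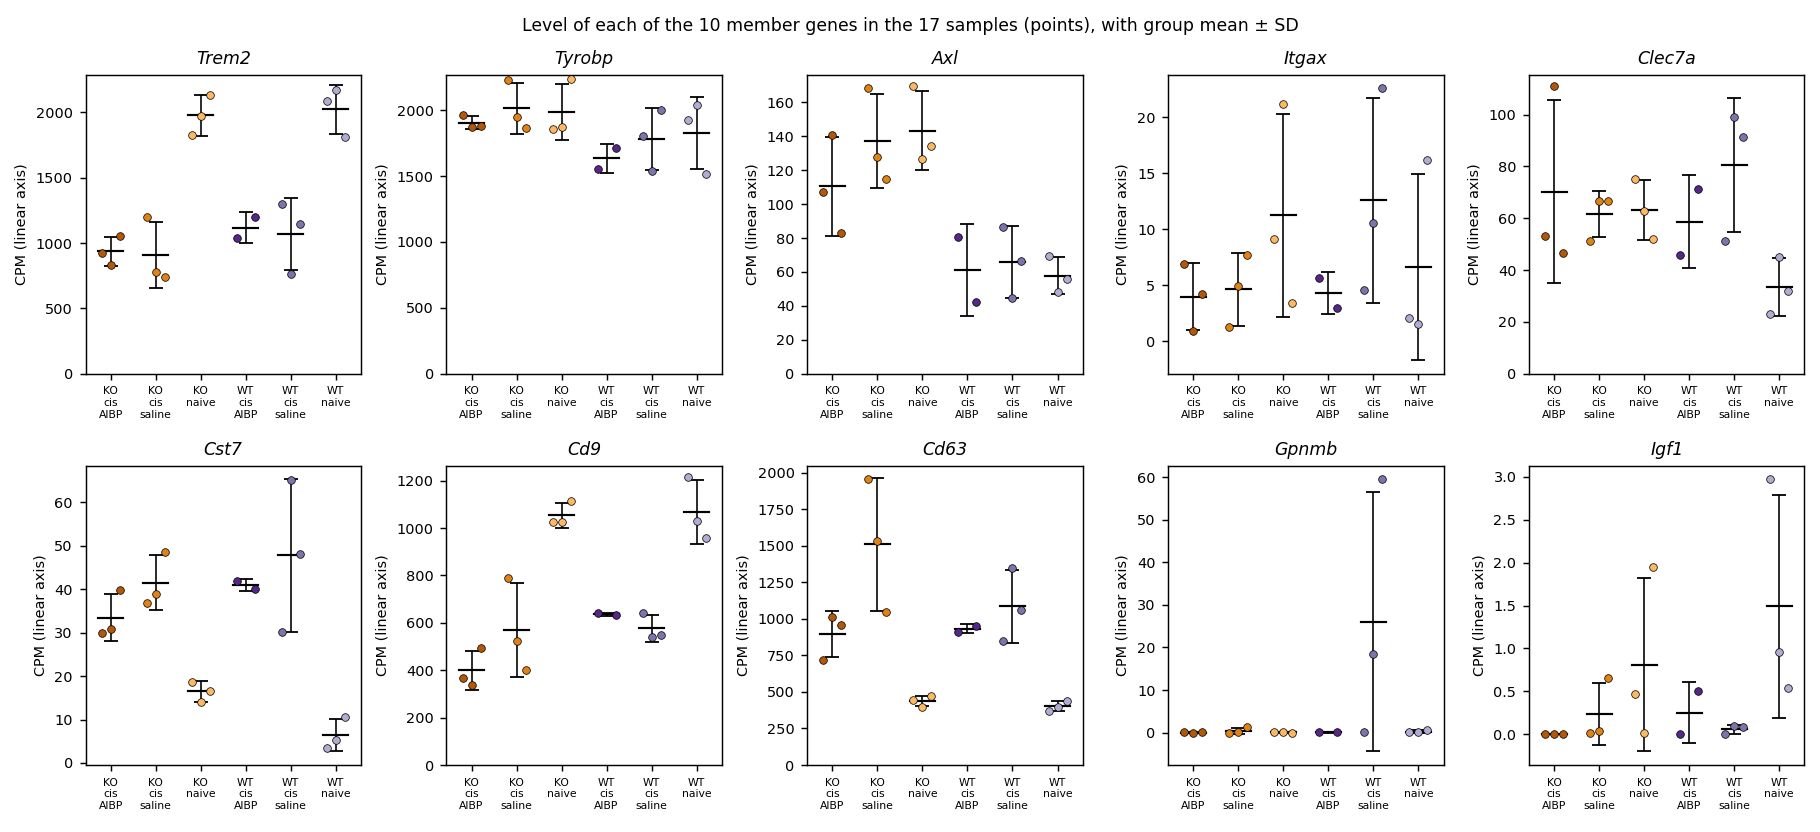
Level of each of the 10 genes in CPM (y axes, linear, each with its own scale) in the 17 samples (points) by group (x axis), with group mean ± SD (bars). Trem2 and Cd9 points lie lower and Cd63 and Cst7 points higher in cisplatin than in naive groups, KO points of Axl lie above WT points of the same condition without passing the test, and Gpnmb stands out only in WT cisplatin saline samples 5 and 6.

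Marker levels of other cells differed with treatment. The 7 monocyte markers (Ly6c2, Ccr2, Chil3, Plac8, F13a1, Fn1 and Vcan) summed to 785 to 1220.1 CPM in KO cisplatin saline and 4.18 to 24.6 CPM in KO naive, and to 238 to 1125 CPM in WT cisplatin saline and 2.91 to 65.2 CPM in WT naive. Most of this came from Fn1, the fibronectin gene, at 639 to 1088 CPM in KO cisplatin saline and 236 to 874 CPM in WT cisplatin saline. Ccr2, the chemokine receptor that defines classical monocytes, reached 95.3 CPM in WT cisplatin saline 5, 62.8 CPM in sample 6 of that group, and no more than 10.2 CPM in any other sample. Chil3 went the other way, at 76.9 to 115.8 CPM in KO cisplatin saline, against 49.4 and 44.7 CPM in WT cisplatin saline 5 and 6. The sample labelled KO cisplatin AIBP 8 held Chil3 at 101.7 CPM. F13a1 stood at 13.2 to 23.1 CPM in KO cisplatin saline, against 80.8 and 49.2 CPM in WT cisplatin saline 5 and 6. The monocyte sums of cisplatin saline and naive did not overlap in either genotype. The 7 microglia markers summed to 8184 to 10431 CPM in KO cisplatin saline and 20748 to 24651 CPM in KO naive, and to 15576 to 20287 CPM in WT cisplatin saline and 26997 to 31208 CPM in WT naive, again without overlap. Each of the 7 was lower in KO cisplatin saline than in KO naive. In WT, Tmem119, P2ry12, Sall1, Cx3cr1 and Siglech were lower in cisplatin saline, but Olfml3 was higher (3393 to 4108 against 3281 to 3355 CPM). Fcrls overlapped in WT (1932 to 2488 against 1803 to 2124 CPM). The 7 border macrophage markers were Mrc1, Cd163, Lyve1, Pf4, Cbr2, Ms4a7 and F13a1, the last also counted among the monocyte markers. They summed to 21.6 to 35.6 CPM in KO cisplatin saline and 6.03 to 8.94 CPM in KO naive. In WT they summed to 0.667 to 150.3 CPM in cisplatin saline and 0.142 to 4.63 CPM in naive, with Lyve1 at 0 in all 4 groups. F13a1 gave 13.2 to 23.1 CPM of the KO cisplatin saline sums. Cbr2 gave 4.12 to 12.4 CPM, overlapping KO naive (2.19 to 8.30 CPM), and no other marker passed 3.82 CPM. In WT cisplatin saline 5 and 6, Pf4 (40.6 and 31.6 CPM) and Ms4a7 (15.9 and 14.2 CPM) also stood above WT naive. The 5 oligodendrocyte markers summed to 139 to 241 CPM in KO cisplatin saline and 306 to 654 CPM in KO naive, and to 169 to 429 CPM in WT cisplatin saline and 421 to 728 CPM in WT naive. The 4 endothelial markers summed to 0.691 to 11.3 CPM in KO cisplatin saline and 16.01 to 44.3 CPM in KO naive, and to 8.17 to 11.3 CPM in WT cisplatin saline and 22.6 to 35.9 CPM in WT naive, without overlap in either genotype. The other lists reached sums of at most 101 CPM for astrocytes, 15.5 for neurons, 15.1 for neutrophils, 5.49 for oligodendrocyte precursors, 3.32 for T and NK cells and 0.659 for B cells. Mitochondrial genes took 2.26 to 3.04% of counts in KO cisplatin saline and 1.53 to 2.14% in KO naive, and 2.18 to 2.57% in WT cisplatin saline and 1.61 to 2.09% in WT naive. The part of these differences in the results was not tested. WT cisplatin saline 4 had a monocyte sum of 238 CPM, 236 CPM of it Fn1, with Ccr2 at 0.324 CPM and Chil3 at 0.114 CPM. A fit with sample 4 alone as the WT cisplatin saline group took its spread from the other groups. Its log2 fold changes were -0.59 for Trem2, 2.28 for Cst7, -0.68 for Cd9 and 1.13 for Cd63. The full group gave -0.92, 2.90, -0.89 and 1.43, in the same directions and each larger in size. A group of 1 sample cannot decide whether a call holds, and the part of the monocyte markers in these values was not tested.

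The AIBP groups were compared to see whether these genes changed when AIBP replaced saline after cisplatin. None of the 10 genes passed in either genotype, where 0.00977% of all genes tested were called in KO and 0% in WT. Without adjustment, 3 of the 10 genes in KO (Cd9, Cd63 and Igf1) and 1 in WT (Gpnmb) had a p under 0.05, as had 1354 and 759 of the 20461 genes tested. DESeq2 called 187 genes in KO, none of them a member, and 104 in WT, with Gpnmb among them (adjusted p = 0.00266). In KO, the ranges did not overlap for 2 of the 10 genes, Cd63 and Igf1, against 8.6% of all genes tested, and in WT for 0, against 18.2%. The 7 monocyte markers summed to 273 to 820.1 CPM in the samples labelled KO cisplatin AIBP and 785 to 1220.1 CPM in KO cisplatin saline, and to 192 to 276 CPM in WT cisplatin AIBP and 238 to 1125 CPM in WT cisplatin saline. The microglia markers summed to 12972 to 18238 CPM in those labelled KO cisplatin AIBP, against 8184 to 10431 CPM in KO cisplatin saline, and to 21464 to 23923 CPM in WT cisplatin AIBP, against 15576 to 20287 CPM in WT cisplatin saline. Cx3cr1 alone stood at 5249.6 to 7078 CPM in the samples labelled KO cisplatin AIBP, against 1718 to 2771 CPM in KO cisplatin saline. Tmem119 and Olfml3 were also higher there without overlap, while P2ry12, Sall1, Siglech and Fcrls overlapped. In WT, Tmem119, Cx3cr1, Fcrls and Olfml3 were higher with AIBP than with saline, and P2ry12, Sall1 and Siglech overlapped. The part of the monocyte and microglia markers in the results was not tested.

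Cd63 stood at 719.6, 1013 and 958 CPM in the samples labelled KO cisplatin AIBP, below all 3 KO cisplatin saline samples (1048 to 1958 CPM). This was a log2 fold change of -0.75 ± 0.22 (adjusted p = 0.706), with an unadjusted interval of -1.21 to -0.29. Cd9 in the same samples was 369, 336 and 494 CPM, against 399.6 to 789.9 CPM in KO cisplatin saline, so that 1 of the 3 lay within the saline range (log2 fold change -0.51 ± 0.21, adjusted p = 0.706). Trem2 was 925, 832 and 1056 CPM, inside the KO cisplatin saline range of 743 to 1197 CPM (0.05 ± 0.21, 95% interval -0.39 to 0.49). Cst7 was 29.9, 30.7 and 39.7 CPM, against 36.9 to 48.7 CPM in KO cisplatin saline (-0.31 ± 0.36). Tyrobp was 1964, 1874 and 1878 CPM, against 1867 to 2229.7 CPM, a log2 fold change of -0.08 ± 0.14. Clec7a was 53.03, 111 and 46.8 CPM, Axl 107, 141 and 83.0 CPM and Itgax 6.87, 0.903 and 4.19 CPM, all overlapping KO cisplatin saline. Gpnmb was at or below 0.0274 CPM. Igf1 had a count of 0 in all 3 samples labelled KO cisplatin AIBP, which, with a floor of 3 counts over the group, was at least 18.7-fold lower than in KO cisplatin saline with 56 counts and at least 63.7-fold lower than in KO naive with 149 counts. Of those KO counts 52 and 121 came from 1 sample each, so neither bound rests on the whole group.

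In WT, AIBP and saline samples overlapped for all 10 genes. Trem2 was 1037 and 1202 CPM in WT cisplatin AIBP, against 763 to 1303 CPM in WT cisplatin saline (log2 fold change 0.07 ± 0.23, 95% interval -0.43 to 0.56). Cd9 was 641 and 633 CPM, against 539 to 643 CPM, and Cd63 was 909 and 954 CPM, against 850.4 to 1349 CPM in WT cisplatin saline. Cst7 was 41.9 and 39.98 CPM, against 30.1 to 65.1 CPM. Tyrobp was 1556 and 1714 CPM, Axl 80.4 and 42.1 CPM, Clec7a 45.97 and 71.3 CPM and Itgax 5.64 and 3.01 CPM, all overlapping the saline samples. Gpnmb was 0.221 and 0.0475 CPM in WT cisplatin AIBP, where WT cisplatin saline 5 and 6 had held 18.4 and 59.5 CPM (log2 fold change -7.61 ± 2.64, adjusted p = 0.996). The test of whether the AIBP effect differed between KO and WT called none of the 10 genes, nor any gene in the table (1285 genes at an unadjusted p under 0.05 and 132 called by DESeq2).

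Set against naive, the AIBP groups gave calls of their own; these comparisons share the naive samples with those of cisplatin saline. In the samples labelled KO cisplatin AIBP, Cd63 was higher than in KO naive (log2 fold change 1.03 ± 0.22, adjusted p = 0.0198), and Trem2 (-1.08 ± 0.21, adjusted p = 0.013) and Cd9 (-1.40 ± 0.21, adjusted p = 0.00365) were lower, where 2.68% of all genes tested were called, 1.81% higher and 0.87% lower. In WT cisplatin AIBP, Cst7 (2.68 ± 0.40, adjusted p = 0.00888) and Cd63 (1.21 ± 0.24, adjusted p = 0.0244) were higher than in WT naive, where 1.25% of all genes were called, 1.06% higher and 0.191% lower. Trem2 (-0.85 ± 0.24, adjusted p = 0.099) and Cd9 (-0.75 ± 0.24, adjusted p = 0.163) missed the threshold in WT with 2 samples. Trem2 passed in 4 of 10 other settings, among them DESeq2 (adjusted p = 0.0103), a mean of at least 10 CPM (0.0338) and the 2 WT groups alone (0.0304). Cd9 passed in 2 of 10, among them DESeq2 (0.0403). Both missed in all 5 single omissions (adjusted p between 0.125 and 0.593 for Trem2 and between 0.191 and 0.608 for Cd9). Igf1, at 0 in the samples labelled KO cisplatin AIBP, missed against KO naive (-8.71 ± 2.67, adjusted p = 0.12) and was called by DESeq2 (0.00595). It missed in all 6 single omissions (adjusted p up to 0.322). The ranges did not overlap for 5 of the 10 genes in KO, against 19.9% of all genes, and for 6 of 10 in WT, against 33.3%. The WT call of Cd63 was lost when any of the 5 samples was left out (adjusted p up to 0.161) and that of Cst7 without WT cisplatin AIBP 7 or 9 (up to 0.0717). In KO, Trem2 lost its call without KO naive 2 or the sample labelled KO cisplatin AIBP 8 (up to 0.0851), and Cd63 lost it without KO naive 1 or 2 or the samples labelled KO cisplatin AIBP 8 or 9 (up to 0.106), while Cd9 kept it in all 6 omissions.

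Between genotypes, none of the 10 genes passed in naive, cisplatin saline or cisplatin AIBP mice, where 0.00489%, 0.044% and 0% of all genes tested were called. Without adjustment, 3 of the 10 genes had a p under 0.05 in each of the 3 conditions, as had 1220, 1837 and 1299 of the 20461 genes tested. These were Axl, Clec7a and Cst7 in naive, Axl, Cd63 and Gpnmb in cisplatin saline, and Axl, Cd9 and Igf1 in cisplatin AIBP. Axl was the one gene whose KO and WT ranges were apart in all 3 conditions. It stood at 126 to 169.7 CPM in KO naive, against 48.3 to 69.7 CPM in WT naive (log2 fold change 1.31 ± 0.30, adjusted p = 0.577), and at 115 to 168 CPM in KO cisplatin saline, against 44.7 to 86.7 CPM in WT cisplatin saline (1.06 ± 0.29, adjusted p = 0.315). In cisplatin AIBP it stood at 83.0 to 141 CPM in the samples labelled KO, against 42.1 and 80.4 CPM in WT (0.85 ± 0.33, adjusted p = 0.732). DESeq2 called Axl in naive (adjusted p = 0.00406) and in cisplatin saline (adjusted p = 0.0375), where it also called Gpnmb, lower in KO (adjusted p = 0.00646). The microglia markers summed to 20748 to 24651 CPM in KO naive, against 26997 to 31208 CPM in WT naive, and to 8184 to 10431 CPM in KO cisplatin saline, against 15576 to 20287 CPM in WT cisplatin saline, with no overlap in either condition. In naive the gap came with Cx3cr1, whose promoter drives the Cre, at 3397 to 4871 CPM in KO and 9349 to 10656 CPM in WT. Fcrls (2352 to 3021 against 1803 to 2124 CPM) and Olfml3 (3532 to 4238 against 3281 to 3355 CPM) were higher in KO naive. Tmem119, P2ry12, Sall1 and Siglech overlapped between the naive genotypes. The part of the microglia markers in these differences was not tested.

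In naive mice, Clec7a and Cst7 were also apart between the genotypes, and 3 of 10 genes compares with 9.63% of all genes whose ranges did not overlap. Clec7a had 75.0, 62.9 and 51.9 CPM in KO naive, against 23.2, 45.2 and 31.9 CPM in WT naive (log2 fold change 0.92 ± 0.35, adjusted p = 0.789). Cst7 had 18.7, 14.1 and 16.7 CPM in KO naive, against 3.42, 5.18 and 10.6 CPM in WT naive (1.36 ± 0.36, adjusted p = 0.789; called by DESeq2, adjusted p = 0.0258). The KO and WT ranges of Trem2 and Tyrobp overlapped in naive mice, with log2 fold changes of -0.03 ± 0.21 (95% interval -0.47 to 0.41) and 0.12 ± 0.14 (-0.18 to 0.42). After cisplatin and saline, Axl was the 1 gene of 10 whose ranges did not overlap, against 12.5% of all genes. In cisplatin AIBP the ranges did not overlap for 5 of 10 genes, Tyrobp, Axl, Cst7, Cd9 and Gpnmb, against 22.2% of all genes. Cd9 was lower in the samples labelled KO, 336 to 494 CPM against 633 and 641 CPM in WT (-0.67 ± 0.23, adjusted p = 0.732).

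Whether the response to cisplatin and saline differed between KO and WT was tested as an interaction. None of the 10 genes passed, and 0 of 20461 genes were called (1561 at an unadjusted p under 0.05, 185 called by DESeq2). The 2 members with an unadjusted p under 0.05 were Cst7, whose log2 fold change in KO minus that in WT was -1.57 ± 0.51 (adjusted p = 0.607), and Clec7a, at -1.31 ± 0.50 (adjusted p = 0.607). Trem2 differed by -0.20 ± 0.29, Cd9 by 0.00 ± 0.30 and Cd63 by 0.35 ± 0.30, with 95% intervals of -0.83 to 0.42, -0.64 to 0.64 and -0.29 to 1.00. A call in 1 genotype alone is thus not shown to be a difference between genotypes.

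Trem2 was highest in WT naive and KO naive, which overlapped, and neither overlapped with the 4 cisplatin groups, whose means ran between 907 and 1119 CPM with neighbours overlapping. Cd9 was also highest in the naive groups, with means of 400 to 637 CPM in the cisplatin groups, against 1055 CPM in KO naive and 1068 CPM in WT naive. Cd63 ran the other way, with means of 1512 CPM in KO cisplatin saline, 1087 in WT cisplatin saline, 932 in WT cisplatin AIBP and 897 in those labelled KO cisplatin AIBP, apart from 438 in KO naive and 402 in WT naive. For Cst7 the 3 highest groups overlapped (47.7, 41.5 and 40.97 CPM), and the samples labelled KO cisplatin AIBP (33.4), KO naive (16.5) and WT naive (6.39) each lay apart from the next. Clec7a was lowest in WT naive (33.4 CPM), apart from the next group up, and its other 5 groups overlapped in turn. For Tyrobp, Axl, Itgax, Gpnmb and Igf1 every neighbouring pair in the order overlapped.

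The partners of the pathway were described from lists chosen with earlier results of these data known. Of 18 genes of the TREM2-TYROBP signalling chain, all tested, 0 rose and 1 fell in each genotype after cisplatin and saline, where 1.99% of all genes tested fell in KO and 0.953% in WT; 1 gene of 18 is close to that background and says nothing about the chain. In KO this was Blnk, an adaptor of immune receptor signalling, at 90.9 ± 38 CPM in cisplatin saline and 332 ± 7.0 CPM in naive (log2 fold change -1.87 ± 0.25, adjusted p = 0.00123). In WT it was Prkcd, protein kinase C delta, at 367 ± 80 CPM in cisplatin saline and 619 ± 34 CPM in naive (-0.75 ± 0.16, adjusted p = 0.0188). Syk, the kinase that TYROBP recruits, had log2 fold changes of -0.35 ± 0.29 in KO and -0.20 ± 0.29 in WT, and Plcg2, the phospholipase downstream of it, -0.20 ± 0.17 and 0.07 ± 0.17; none of these passed. The median log2 fold change of the list was -0.38 in KO and -0.18 in WT, against -0.04 and -0.0087 over all genes tested. Among 10 receptors coupled to TYROBP, Siglech, a lectin of resting microglia, fell in KO (-1.44 ± 0.31, adjusted p = 0.0158) and none passed in WT. Of 5 other genes of the TREM family, Treml2 rose in KO, at 86.2 ± 19 CPM in cisplatin saline and 17.5 ± 4.6 CPM in naive (2.30 ± 0.46, adjusted p = 0.0112), and none passed in WT. Of all genes tested, 2.42% rose in KO. When single samples were left out, Blnk kept its call, while Prkcd lost it without WT naive 1 or 2 or WT cisplatin saline 5 or 6 (adjusted p up to 0.0986), Siglech without KO naive 2 or KO cisplatin saline 5 (up to 0.0828) and Treml2 without KO naive 1 (up to 0.0568).

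Adam10 and Adam17 encode the proteases that shed TREM2 from the cell surface, and genes of the MS4A cluster are linked to soluble TREM2 in humans. Neither protease gene passed (Adam10 -0.03 ± 0.22 in KO and -0.36 ± 0.22 in WT, Adam17 -0.45 ± 0.19 and -0.30 ± 0.19 on the log2 scale). Of the 7 genes of this list, Ms4a6c and Ms4a6d rose in both genotypes and 0 fell, where 2.42% of all genes tested rose in KO and 1.95% in WT. Ms4a6c stood at 320 ± 139 CPM in KO cisplatin saline and 30.2 ± 4.8 CPM in KO naive (3.41 ± 0.39, adjusted p = 0.000515), and at 102.2 ± 44 CPM in WT cisplatin saline and 21.1 ± 3.9 CPM in WT naive (2.27 ± 0.37, adjusted p = 0.00596). Ms4a6d stood at 883 ± 357 CPM in KO cisplatin saline and 169.9 ± 18 CPM in KO naive (2.38 ± 0.33, adjusted p = 0.00134), and at 463 ± 181 CPM in WT cisplatin saline and 183 ± 22 CPM in WT naive (1.34 ± 0.32, adjusted p = 0.0368). In WT, the log2 fold change of Ms4a6c was 1.39 without WT cisplatin saline 5 and 6 together, which leaves sample 4 alone. Ms4a6d lost its WT call without any WT naive sample or WT cisplatin saline 5 or 6 (adjusted p up to 0.19). The KO calls of both held when any single sample was left out.

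Cystatin F inhibits cysteine cathepsins, and 2 of 6 such protease genes rose in each genotype. Of all genes tested, 2.42% rose in KO and 1.95% in WT. Ctsc, cathepsin C, had 4098 ± 922 CPM in KO cisplatin saline and 1803 ± 59 CPM in KO naive (1.18 ± 0.28, adjusted p = 0.0268), and 4544 ± 1990 CPM in WT cisplatin saline and 1863 ± 158 CPM in WT naive (1.29 ± 0.28, adjusted p = 0.0247). Ctsl, cathepsin L, rose by 0.77 ± 0.18 in KO (adjusted p = 0.023) and 0.74 ± 0.18 in WT (adjusted p = 0.0378) on the log2 scale. Among 10 further tetraspanin genes, more fell than rose. Cd37 fell in KO (-0.997 ± 0.21, adjusted p = 0.0155) and WT (-1.07 ± 0.21, adjusted p = 0.0154), and Cd82 in KO (-1.40 ± 0.30, adjusted p = 0.0146) and WT (-1.24 ± 0.29, adjusted p = 0.0361). In KO, Tspan14 fell (-0.84 ± 0.15, adjusted p = 0.00467) and Tspan4 rose (1.09 ± 0.25, adjusted p = 0.0221). The list thus had 1 gene higher and 3 lower in KO and 0 higher and 2 lower in WT. Of all genes tested, 1.99% fell in KO and 0.953% in WT. Among these calls, that of Tspan14 alone held when any single sample was left out. The others were lost without at least 1 sample: Ctsc without any KO naive sample or KO cisplatin saline 5 (adjusted p up to 0.122) and without any WT naive sample or WT cisplatin saline 5 or 6 (up to 0.134), Ctsl without any KO naive sample or KO cisplatin saline 4 or 5 (up to 0.0901) and without the same WT samples as Ctsc (up to 0.17). Cd37 missed without KO naive 2 or KO cisplatin saline 5 or 6 (up to 0.0854) and without WT naive 1 or 2 or WT cisplatin saline 5 (up to 0.0764), Cd82 without KO cisplatin saline 5 (0.0797) and without any WT naive sample or WT cisplatin saline 5 or 6 (up to 0.112), and Tspan4 without KO naive 1 or 2 or KO cisplatin saline 4 or 5 (up to 0.0963).

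Around the remaining members fewer genes passed. Of all genes tested, 2.42% rose and 1.99% fell in KO, and 1.95% rose and 0.953% fell in WT. Of the TAM genes beside Axl, 3 of 4 were tested and none passed, with the sister receptor Mertk at -0.59 ± 0.21 in KO and -0.48 ± 0.21 in WT and the ligand Gas6 at 0.81 ± 0.30 and 0.48 ± 0.30 on the log2 scale. None of 6 integrin partners of Itgax passed. Of 8 C-type lectin genes near Clec7a, Clec4n, which encodes dectin-2, was called in WT (9.06 ± 2.16, adjusted p = 0.0368), but sample 4 held 0.0762 CPM, and the log2 fold change was -0.30 without samples 5 and 6 together. It also missed without either of them or any WT naive sample (adjusted p up to 0.146). None of 8 MiT/TFE and lysosomal partners of Gpnmb passed after cisplatin and saline. In the IGF system 7 of 11 genes were tested, and Igfbp4, a binding protein of IGF1, fell in KO, at 12.1 ± 8.1 CPM in cisplatin saline and 57.0 ± 16 CPM in naive (-2.23 ± 0.39, adjusted p = 0.00475).

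Other genes of the disease-associated state moved both ways. Of 22, 20 were tested. In KO 5 rose and 3 fell after cisplatin and saline, and in WT 5 rose and 1 fell. Over all genes tested, 2.42% rose and 1.99% fell in KO, and 1.95% rose and 0.953% fell in WT. The median log2 fold change of the 20 was -0.04 in KO and 0.56 in WT, against -0.04 and -0.0087 over all genes tested. Spp1, which encodes osteopontin, stood at 1073 to 2806 CPM in KO cisplatin saline and 38.7 to 77.4 CPM in KO naive (4.80 ± 1.13, adjusted p = 0.0261), and at 738 to 3750 CPM in WT cisplatin saline and 2.61 to 90.4 CPM in WT naive (6.07 ± 1.201, adjusted p = 0.0152). Fth1, ferritin heavy chain, rose in KO (0.81 ± 0.19, adjusted p = 0.0244) and WT (0.82 ± 0.19, adjusted p = 0.0304), and so did Cd52 (0.71 ± 0.18 and 0.73 ± 0.18), named after its values were seen. Ctsd, the lysosomal protease cathepsin D, fell to 1960 ± 824 CPM in KO cisplatin saline, against 5563 ± 180 CPM in KO naive (-1.51 ± 0.27, adjusted p = 0.00581), and to 1639 ± 584 CPM in WT cisplatin saline, against 3997 ± 251 CPM in WT naive (-1.29 ± 0.27, adjusted p = 0.0198). Lpl, lipoprotein lipase, was called in WT (2.23 ± 0.45, adjusted p = 0.0176) and missed in KO (0.91 ± 0.44, adjusted p = 0.29). In KO, Serpine2 fell (-1.45 ± 0.27, adjusted p = 0.00695) and so did Ank (-1.97 ± 0.53, adjusted p = 0.0489), named after its values were seen. Leaving out single samples, the KO calls of Ctsd, Serpine2 and Apoe held, while that of Ctsl was lost in 5 of 6 omissions (adjusted p up to 0.0901). For the KO calls of Spp1, Fth1, Cd52 and Ank no omission result is given here. In WT, Spp1 missed without WT naive 2 or WT cisplatin saline 5 (adjusted p up to 0.059), Lpl without WT naive 1 or 2 or WT cisplatin saline 5 (up to 0.0977), Fth1 without WT naive 1 or 3 or WT cisplatin saline 5 or 6 (up to 0.141) and Ctsd without any WT naive sample or WT cisplatin saline 5 or 6 (up to 0.0935). With sample 4 alone, the WT log2 fold change was 4.52 for Spp1, 0.95 for Lpl, 0.64 for Fth1 and -0.81 for Ctsd.

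Apoe, which encodes the apolipoprotein that is both a ligand of TREM2 and a carrier of cholesterol, rose in KO after cisplatin and saline. It stood at 12711 ± 7426 CPM in KO cisplatin saline and 3971 ± 653 CPM in KO naive (1.68 ± 0.30, adjusted p = 0.00602), and at 1612 ± 256 CPM in WT cisplatin saline and 1227 ± 94 CPM in WT naive, where it did not pass (0.39 ± 0.30, adjusted p = 0.511). It was 1312 ± 275 CPM in the samples labelled KO cisplatin AIBP, lower than in KO cisplatin saline (-3.28 ± 0.32, adjusted p = 0.00112) and than in KO naive (-1.60 ± 0.30, adjusted p = 0.0115). KO cisplatin saline also stood above WT cisplatin saline (2.98 ± 0.32, adjusted p = 0.00318), where 0.0195% of all genes tested were higher. Fitted on their own groups only, these comparisons did not pass for AIBP against saline (adjusted p = 0.843), for KO against WT cisplatin saline (0.396) or for KO cisplatin saline against naive (0.0636). The KO against WT call was also lost without WT cisplatin saline 5 and 6 and with the sample number as a block, and that of the samples labelled KO cisplatin AIBP against KO naive without KO naive 1 or AIBP sample 8 (adjusted p up to 0.0805). Among the listed genes, Apoe was the 1 called between AIBP and saline.

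**Figure D4:**
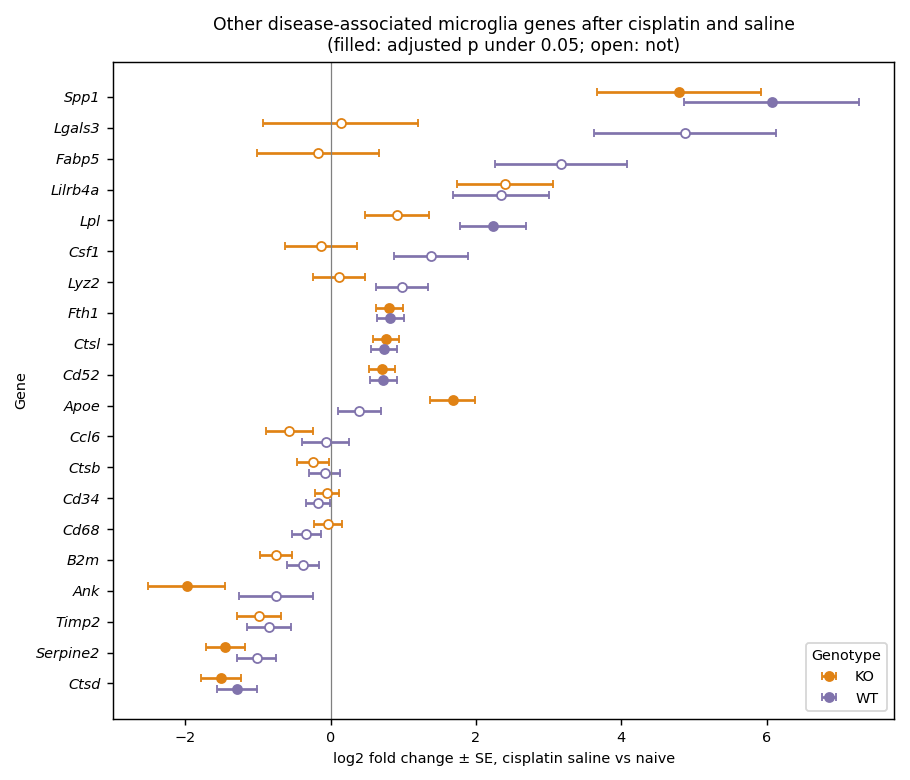
Log2 fold change (x axis, points, bars show SE) of 20 other disease-associated microglia genes (y axis, ordered by WT value) in cisplatin saline against naive, in KO (orange, upper point) and WT (purple); filled points have an adjusted p under 0.05. Spp1, Fth1, Ctsl and Cd52 are filled on the right in both genotypes, Ctsd on the left in both, and Apoe on the right in KO alone.

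Over the 17 samples, the genes whose log2 CPM was most like that of a member were named by Pearson r among 8570 genes averaging 10 CPM or more; the points share the group means, and no test was made. Trem2 was closest to Cd37 (r = 0.97), Map1lc3a (0.97), an autophagy gene, and Itm2b (0.97), and Cd9 to Rgl1 (0.95), Itm2b (0.95) and Themis2 (0.93). Cst7 was closest to Spp1 (0.96), Cpd (0.94) and Prim1 (0.94), and Cd63 to Ms4a6d (0.96), Ms4a6c (0.96) and Cyp4f18 (0.95). Tyrobp was closest to Pfdn5 (0.87), Med31 (0.82) and Higd2a (0.81), and Axl to Dlst (0.86), Kcnk6 (0.81) and Oxa1l (0.79). Clec7a was closest to Anxa2 (0.84), Fgl2 (0.82) and Nudcd1 (0.80), Igf1 to Ss18 (0.83), Lefty1 (0.80) and Klhl9 (0.79), and Itgax to Socs5 (0.73), Dop1a (0.70) and Cmip (0.69). Gpnmb was closest to Trub1, Ccr2 and Lilr4b (0.75 each), and these fell to 0.48, 0.41 and 0.37 without WT cisplatin saline 5 and 6. Among the members, Trem2 and Cd9 went together (0.92), both against Cd63 (-0.84 and -0.67) and Cst7 (-0.83 and -0.74), while Trem2 and Tyrobp had an r of 0.23.

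The 3 technical libraries of a sample agreed more closely for the 4 most abundant of the genes than for the other 6. The SD of log2(CPM + 1) between technical libraries was 0.18 for Trem2, 0.22 for Tyrobp, 0.24 for Cd9 and 0.24 for Cd63, but 0.64 for Axl, 0.83 for Clec7a, 0.90 for Cst7, 1.33 for Itgax, 1.13 for Gpnmb and 0.70 for Igf1. Between the summed samples of a group it was 0.26, 0.16, 0.26 and 0.28 for the first 4 genes and 0.38, 0.45, 0.41, 1.13, 1.32 and 0.50 for the other 6. In WT naive, 1 library each of samples 1 and 2 held Cst7 at 0.0508 and 0.114 CPM while their other libraries held 2.93 to 9.87 CPM. Igf1 was at 0 in 34 of 51 libraries, Gpnmb in 13 and Itgax in 4.

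**Figure D5:**
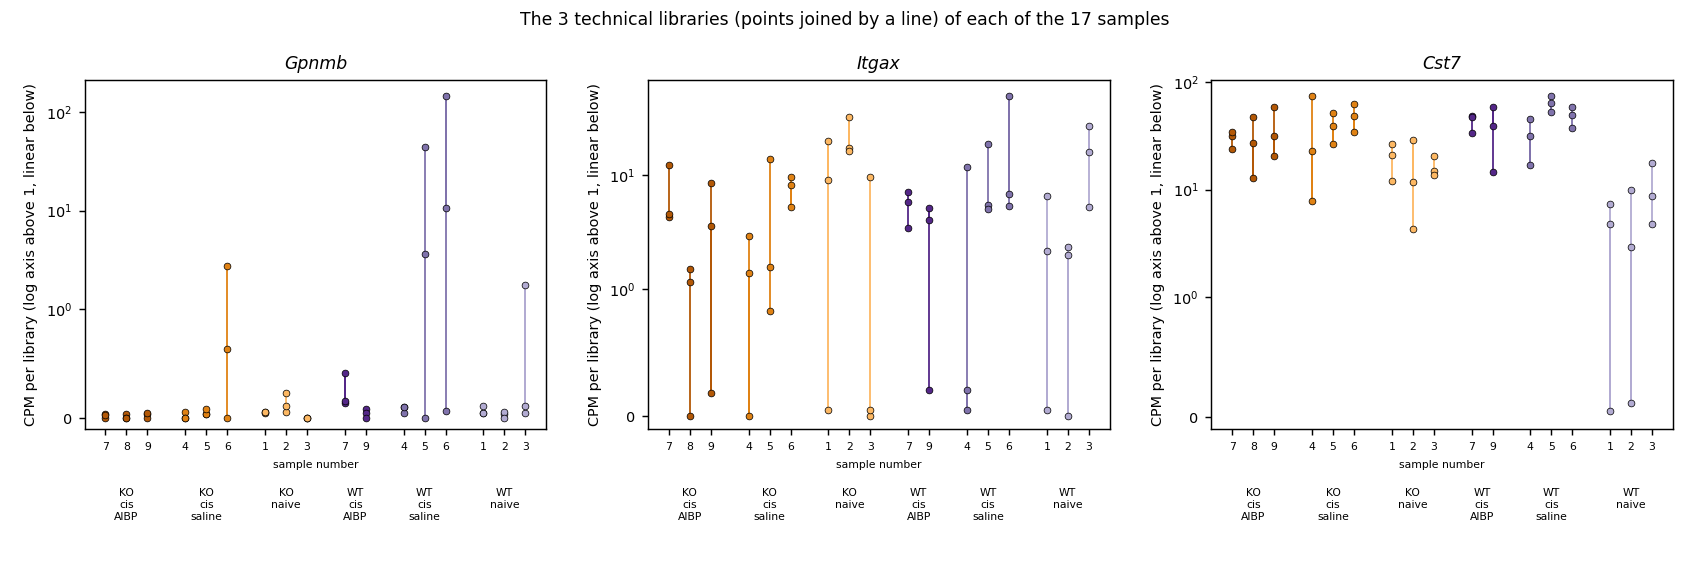
CPM of Gpnmb, Itgax and Cst7 (y axes, log above 1 and linear below) in the 3 technical libraries (points joined by a line) of each of the 17 samples (x axis, by group and sample number). For Gpnmb in WT cisplatin saline 5 and 6, 1 library of each stands at 43.9 and 145.5 CPM while another stands at or below 0.0604 CPM.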

How the data were processed

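Resident microglia of 17 numbered samples in 6 groups were sequenced as 51 libraries in 102 runs. The submitters' processing notes name STAR 2.6.0a, GRCm38, DESeq2, bcl2fastq, MultiQC 1.7 and FastQC 0.11.17; which tool counted reads, and on which strand, is not given in the sources used here. Raw counts per gene and run were deposited by the authors. They also deposited a normalized table whose values are a signal, counts divided by 1 size factor per run (factors 0.437 to 1.62, constant within a relative tolerance of 1e-09 in all 102 runs), which was used only to choose the genes.

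Runs were summed per numbered sample. Groups were compared with edgeR 4.0.16 in R 4.3.3: TMM scaling (0.885 to 1.11), filterByExpr by group (20461 genes), glmQLFit and glmQLFTest with a mean per group over all 17 samples (residual df 11, common biological coefficient of variation 0.922), and Benjamini-Hochberg adjustment over all genes tested, two-sided, at 0.05. There were 11 contrasts, 2 of them interactions. Alternatives were DESeq2 1.42.0, its size factors, limma-voom (limma 3.58.1), other filters (none, or a mean of at least 10 CPM), the groups of a contrast alone, omitted samples or technical libraries, and replicate blocks. The fitting code was tested on simulated data. Gene IDs were named from GENCODE M21 (53620 named, 95 not), and promoters came from RefSeq.

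The 10 genes, the partner lists and the markers were chosen with earlier results of these data known. The microglia and monocyte lists each hold 1 further marker that is not reported here, and their sums leave it out. Partner genes were named if called, up to 4 per list and contrast by smallest p, and like genes by the 3 highest correlations. Intervals cover the spread between samples, and a floor of 3 counts covers counting error only.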

Additional observations from a re-analysis of the deposited data

How the results depend on the processing

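Of 2544 recomputed fold changes, 2134 kept their direction and side of the threshold, 227 lost a call, 34 gained one, 148 changed sign while passing in neither setting, and 1 called change turned round, that of Clec4n in WT cisplatin saline against naive (-0.30 without samples 5 and 6). Of the 2544, 1649 passed in neither setting, so most of the 2134 were never called and do not measure how well calls held. Trem2 and Cd63 in KO cisplatin saline against naive were called in every alternative. DESeq2 called 1 member for WT AIBP against saline (Gpnmb), where it called 104 of all genes. For KO against WT in naive it called 2 members (Axl and Cst7) and 166 of all genes. DESeq2 also called 4 members for WT AIBP against naive and 2 for KO against WT in cisplatin saline (Axl and Gpnmb). limma-voom called 1 for WT AIBP against naive. With only the groups of a contrast, 1 member was called for WT cisplatin saline against naive and 1 for KO AIBP against naive (61 of all genes). Without technical replicate 1 or 3, 2 were called for WT cisplatin saline against naive, and without technical replicate 2, 1 for WT AIBP against naive (79 of all genes). Member counts with no count over all genes beside them cannot be read as more or fewer than background. The fit without WT cisplatin saline 5 and 6 leaves 1 sample in that group and cannot decide whether a call holds. With single samples left out, the member calls ranged over 2 to 6 for WT cisplatin saline against naive (149 to 853 of all genes) and 2 to 3 for KO cisplatin saline against naive (366 to 788). They ranged over 0 to 1 for WT AIBP against naive (1 to 138) and 1 to 3 for KO AIBP against naive (142 to 823), and stayed at 0 in the other 7 contrasts. The cause of these changes was not tested.

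Same-numbered WT and KO samples had deviations from their group means with r of -0.137 to 0.145. No pairing by number was seen in these values, which come from few samples per group and cannot exclude it. With the sample number as a replicate block, 0 members and 0 genes were called between KO and WT in each condition. A fit of the 51 libraries with the technical replicate number as a replicate block treats the 3 libraries of a sample as independent. It called 4 members for WT AIBP against naive, where it called 1617 of all genes. For KO against WT in cisplatin saline it called 2 members (Axl and Gpnmb) and 487 of all genes. It also called 1 member for KO AIBP against saline (Cd63), 1 for KO against WT in naive (Axl) and 1 in cisplatin AIBP (Cd9).

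Over all genes, the counts called ranged from 7 to 2313 for WT cisplatin saline against naive (595 in the edgeR test), 366 to 2589 for KO cisplatin saline against naive (903), 1 to 1617 for WT AIBP against naive (256), 61 to 2109 for KO AIBP against naive (549), 0 to 104 for WT AIBP against saline (0), 0 to 187 for KO AIBP against saline (2), 0 to 166 for KO against WT in naive (1), 0 to 487 in cisplatin saline (9), 0 to 195 in cisplatin AIBP (0), 0 to 185 for the cisplatin interaction (0) and 0 to 132 for the AIBP interaction (0). Igf1 rested on 0 to 147 counts a sample. The SD of log2(CPM + 1) for Itgax and Gpnmb was 1.13 to 1.33, both between technical libraries and between samples of a group.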
